A study of Rattus norvegicus with 12 samples.

Results

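The genes described here present peptides on MHC class I molecules, in the striatum of rats with a lesion of the dopamine fibres. They were chosen by name: probes whose accession maps to a class I heavy chain symbol of the rat (RT1-A, RT1-CE, RT1-S, RT1-N, RT1-M or RT1-T) or to 1 of 15 genes of the light chain, the peptide-loading complex, the immunoproteasome and their control. Of 30367 distinct probes on the array, 49 matched, for 42 of the 14629 genes that the probes name. Erap1, a peptide trimmer, and Nlrc5, the class I transactivator, matched no probe and are not analysed here. Of the 49 probes, 39 (36 genes) were bright enough to be tested, among 21600 tested on the whole array. They comprise 26 probes of heavy chains and 13 of other members. The names alone set the membership, but the genes were put forward with their L-DOPA and zonisamide values on these same arrays known. Counts and p-values below are therefore a description of these arrays and no independent support.

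Class I molecules display short peptides from inside the cell to T cells and natural killer cells. Each holds a variable heavy chain and the common light chain beta-2 microglobulin. Peptides are cut by the proteasome, whose immune form is induced by interferon, moved into the endoplasmic reticulum by the TAP transporter, and loaded with the help of tapasin, calreticulin, calnexin and Pdia3. In the rat, RT1-A genes encode the classical heavy chains and the many genes of the RT1-C/E/M region encode mostly non-classical ones. In resting brain, class I is best known on endothelium and on microglia, with lower levels on neurons. The heavy chain genes are a family of close paralogs that vary between animals. The probe sequences are not given in the sources used here, so a heavy chain probe may read several paralogs or alleles, and their part in the results was not tested.

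All rats were male Wistar rats given 6-hydroxydopamine (6-OHDA), a toxin of dopamine neurons, in the left medial forebrain bundle, the tract of dopamine fibres to the striatum. All had passed a screen of at least 7 turns per minute after methamphetamine at 3 mg/kg, so every group below, the non-lesioned side included, comes from animals with a lesion in 1 hemisphere. Of the 4 groups, 3 were taken from the side with the lesion: rats on L-DOPA (100 mg/kg) plus zonisamide (50 mg/kg), rats on L-DOPA (100 mg/kg) alone, and rats on saline. The last was the non-lesioned striatum of rats on saline. Drugs were injected once a day for 7 days. L-DOPA, the precursor of dopamine, followed benserazide, which blocks its conversion outside the brain, and zonisamide, an anticonvulsant given in Parkinson's disease too, followed L-DOPA by 30 min. Each group had 3 animals and 3 single-colour arrays. The labels leave unsaid whether both saline groups share animals.

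Signals are given as log2 values relative to the 75th percentile of their own array, called relative log2 signal here, so 0 is the brightness at that percentile. That percentile lay between 793 and 1737 intensity units, and 67.6% to 74.0% of probes were well above background. No member spot was saturated. Only 3 arrays per group limit the precision of every value. Some arrays stood apart within their groups. The 13 choroid plexus marker probes summed to 110 times the 75th percentile on replicate 3 of L-DOPA with zonisamide, 172 and 124 on replicates 2 and 3 of L-DOPA, and 138 on non-lesioned replicate 3, against 1.19 to 21.4 on the other 8 arrays. Replicate 3 of lesioned saline had the higher heavy chain signal described below. The striatal label held: the 14 probes of spiny neuron markers were above background on all 12 arrays. The tissue was analysed in bulk, so more class I RNA per cell and more cells that carry it cannot be told apart.

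RefSeq promoter entries (assembly GRCr8) were found for 37 of the 42 member symbols. Windows of 300 bases, from 250 before to 50 after the annotated start, were searched on both strands for 3 short motifs. GGGATTCCC, the core of the kappa B site in enhancer A of class I promoters, was in 7 of 25 heavy chain windows (RT1-A1, RT1-A2, RT1-CE4, RT1-CE10, RT1-CE11, RT1-CE13 and RT1-CE16) and in 0 of 12 windows of other members. It was in 0.365% of all 33469 windows. GAAANNGAA, a core of the interferon-stimulated response element, was in 3 heavy chain windows (RT1-S2, RT1-S3 and RT1-N3) and in 7 of the other members (B2m, Tap1, Tap2, Tapbp, Psmb8, Psmb10 and Psme2), against 9.71% of all windows. Neighbouring copies of it overlapped in the Psmb10, Tapbp and RT1-N3 windows. CCAAT was in 23 of the 37 member windows and in 37.5% of all windows. A match is a description of these letters and not a measured binding site. Other spellings of these elements were not searched, so a window without a match may still hold one. The 3 heavy chain sequences below hold tttcacttc after the kappa B core, which GAAANNGAA matches on neither strand. The 250 bases before the start are shown for 3 heavy chains that share the kappa B core, and for Tap2, Tap1 and B2m, whose windows hold the interferon core. They lie at chr20:4906959-4907208 on the plus strand (RT1-A1), chr20:4872621-4872870 on the plus strand (RT1-A2), chr20:3363199-3363448 on the minus strand (RT1-CE11), chr20:4652297-4652546 on the minus strand (Tap2), chr20:4668544-4668793 on the minus strand (Tap1) and chr3:129549080-129549329 on the plus strand (B2m). Each runs 5′ to 3′ toward the gene, with matches to the motifs on either strand in capitals.
RT1-A1: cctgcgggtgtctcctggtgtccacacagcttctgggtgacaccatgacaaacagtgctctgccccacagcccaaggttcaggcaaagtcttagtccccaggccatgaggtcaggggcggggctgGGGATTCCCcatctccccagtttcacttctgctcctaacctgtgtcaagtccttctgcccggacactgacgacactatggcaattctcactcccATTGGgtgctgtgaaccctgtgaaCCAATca
RT1-A2: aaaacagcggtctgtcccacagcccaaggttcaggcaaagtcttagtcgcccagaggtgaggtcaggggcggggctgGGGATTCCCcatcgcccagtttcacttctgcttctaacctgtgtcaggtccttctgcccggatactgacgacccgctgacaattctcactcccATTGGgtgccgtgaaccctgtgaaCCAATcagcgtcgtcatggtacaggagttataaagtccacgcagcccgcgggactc
RT1-CE11: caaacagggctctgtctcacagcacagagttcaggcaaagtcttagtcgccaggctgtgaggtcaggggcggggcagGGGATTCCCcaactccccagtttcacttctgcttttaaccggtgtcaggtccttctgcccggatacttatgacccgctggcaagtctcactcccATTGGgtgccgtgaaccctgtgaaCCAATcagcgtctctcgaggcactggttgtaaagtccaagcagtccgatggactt
Tap2: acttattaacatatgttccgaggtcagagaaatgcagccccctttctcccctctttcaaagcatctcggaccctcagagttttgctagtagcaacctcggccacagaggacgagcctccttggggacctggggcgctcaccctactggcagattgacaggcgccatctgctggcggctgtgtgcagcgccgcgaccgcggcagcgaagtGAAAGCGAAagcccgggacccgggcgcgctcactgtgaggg
Tap1: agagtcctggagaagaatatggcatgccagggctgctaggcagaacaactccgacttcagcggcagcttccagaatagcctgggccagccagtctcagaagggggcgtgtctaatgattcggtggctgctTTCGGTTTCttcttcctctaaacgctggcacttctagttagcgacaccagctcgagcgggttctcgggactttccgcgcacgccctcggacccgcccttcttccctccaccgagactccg
B2m: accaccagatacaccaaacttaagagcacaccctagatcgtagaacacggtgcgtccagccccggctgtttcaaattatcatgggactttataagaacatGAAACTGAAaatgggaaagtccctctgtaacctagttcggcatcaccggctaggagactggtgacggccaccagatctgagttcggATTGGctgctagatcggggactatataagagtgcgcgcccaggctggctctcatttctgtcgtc

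The first 3 sequences are close relatives. In local alignments of the 300-base windows, RT1-A2 was identical to RT1-A1 at 92.4% of 251 aligned columns and RT1-CE11 at 85.7% of 251 columns. Counted from the annotated start, the kappa B core began at position -125 in RT1-A1 and at -173 in RT1-A2 and RT1-CE11. The B2m window aligned to that of RT1-A1 over 33 columns only. The interferon core began at -41 in Tap2, at -120 in Tap1 and at -150 in B2m.

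Most heavy chain probes, Tap1 and Tap2 were high on the L-DOPA arrays. With zonisamide added they were near the level of both saline groups. The L-DOPA arrays lay wholly above lesioned saline on 14 of 26 heavy chain probes, against 11.6% of all probes. They lay wholly below on 2, against 10.6%. The 26 heavy chain probes together summed to 6.81 to 8.90 times the 75th percentile with L-DOPA and zonisamide, 22.8 to 33.9 with L-DOPA, 8.15 to 16.0 in lesioned saline and 6.63 to 11 on the non-lesioned side. The L-DOPA arrays did not overlap with any other group in this sum, in which bright probes weigh most. B2m and the genes of peptide making showed much smaller differences.

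**Figure D1:**
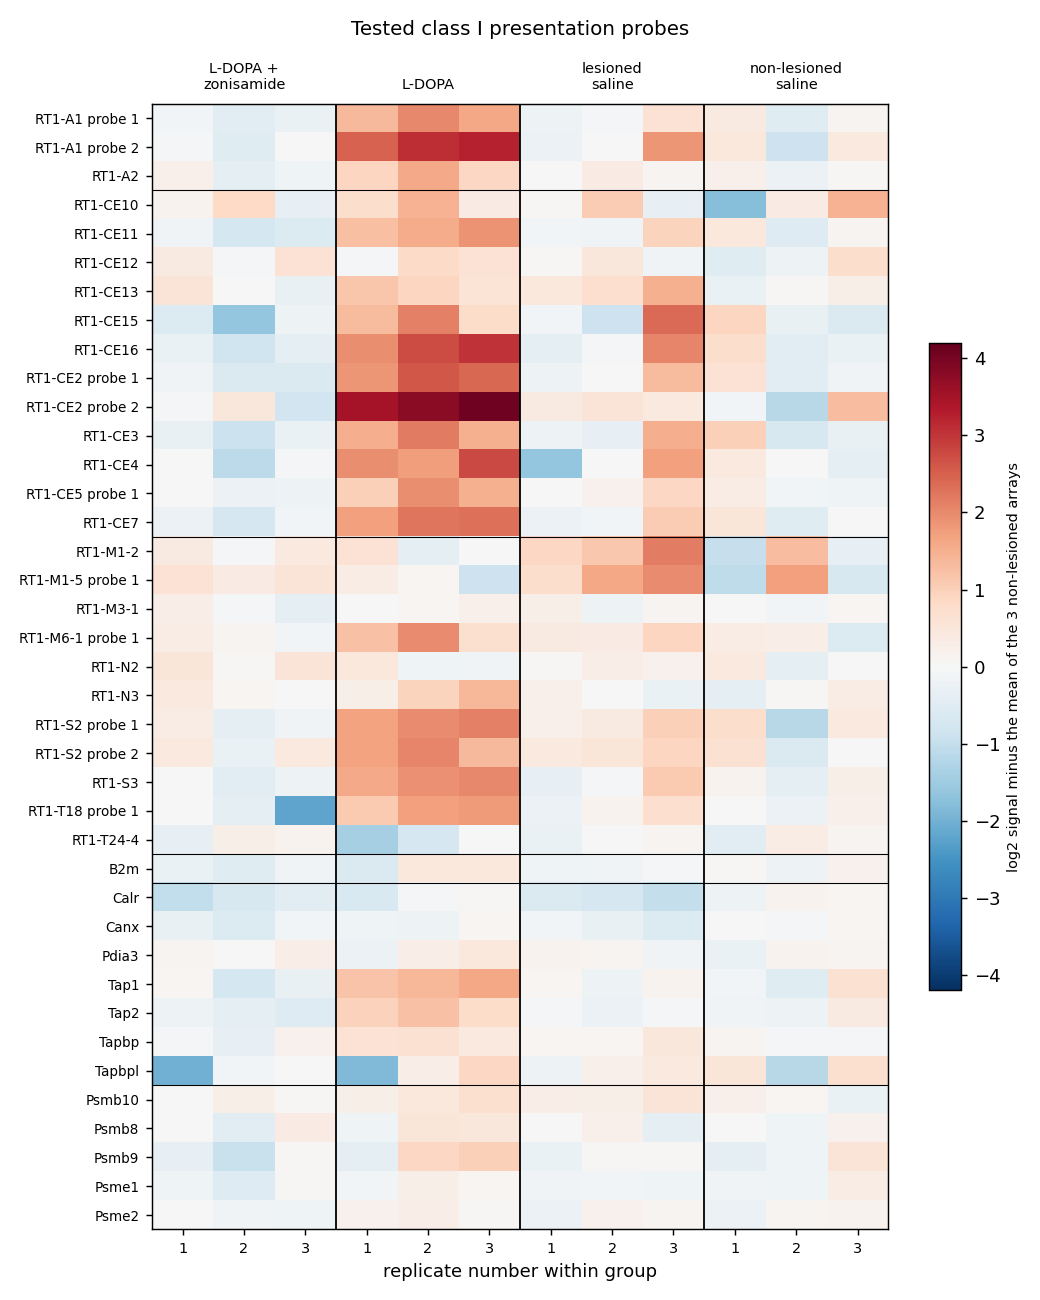
Relative log2 signal of the 39 tested probes on the 12 arrays, minus the mean of the 3 non-lesioned arrays (colour scale, log2 units). Rows are probes grouped by role from RT1-A at the top to peptide making at the bottom, and columns are arrays by group. The L-DOPA columns are red for most RT1-A, RT1-CE and RT1-S rows and for Tap1 and Tap2, and replicate 3 of lesioned saline is red for part of the heavy chains.

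For L-DOPA against lesioned saline, 2 of 39 probes rose and none fell at an adjusted p under 0.05 (limma, Benjamini-Hochberg over all probes tested), RT1-CE2 probe 2 and Tap2. Over all tested probes, 0.394% passed (0.301% higher, 0.0926% lower). At an unadjusted p under 0.05 there were 21 members, against 11% of all probes. The L-DOPA arrays lay wholly above lesioned saline on 16 members, against 11.6% of all probes, and wholly below on 2, against 10.6%. The median log2 change was 0.75 over the 39 members, 1.12 over heavy chains and 0.23 over the other members, beside -0.03 over all probes. The first 2 replicates of L-DOPA and of lesioned saline share slides, and with slide as a fixed block neither call held (adjusted p = 0.152 for RT1-CE2 probe 2 and 0.194 for Tap2). With the replicate number as a block neither held as well (adjusted p = 0.0872 and 0.114). With background correction by normexp on median spot brightness 1 member passed. The member count was 0 without replicate 1 of the non-lesioned side, replicate 1 or 2 of lesioned saline, replicate 2 or 3 of L-DOPA, or the first array of L-DOPA with zonisamide. It was 1 without replicate 2 of the non-lesioned side or replicate 2 or 3 of L-DOPA with zonisamide, and 5 without replicate 3 of lesioned saline. Leaving out the 4 arrays high in choroid plexus markers left replicate 1 as the only L-DOPA array, and the member median was then 0.49.

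For L-DOPA with zonisamide against L-DOPA, 10 of 39 members fell and none rose in the main fit, which has no block. Over all tested probes, 0.486% passed (0.0833% higher, 0.403% lower). They were 8 heavy chain probes (RT1-A1 probes 1 and 2, RT1-CE2 probes 1 and 2, RT1-CE5 probe 1, RT1-CE7, RT1-CE11 and RT1-S3), Tap1 and Tap2. At an unadjusted p under 0.05 there were 24 members, against 12.2% of all probes. The arrays of L-DOPA with zonisamide lay wholly below L-DOPA on 22 members, against 10.6% of all probes, and wholly above on 1, against 6.77%. The median log2 change was -0.90 over members, -1.78 over heavy chains and -0.41 over the other members, beside -0.03 over all probes. In this comparison the replicate numbers pair the arrays, which share slides. With the replicate number as a block, 0 of 39 members passed, and the 10 had adjusted p between 0.0538 and 0.100 with the same log2 changes. With slide as a fixed block 0 passed too (adjusted p 0.0733 to 0.115), with normexp 1 passed, and in a fit of the 2 drug groups alone 0 passed. Without replicate 2 or 3 of L-DOPA, or replicate 2 or 3 of L-DOPA with zonisamide, the count was 0 as well. It was 2 without the first array of L-DOPA with zonisamide, 5 without replicate 1 of the non-lesioned side or replicate 2 of lesioned saline, and 6 without replicate 1 of lesioned saline. Without the 4 arrays high in choroid plexus markers only 1 L-DOPA array remains, so no count is given for that setting. The L-DOPA and zonisamide comparisons share the 3 L-DOPA arrays, so a high value there enters both.

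Within single slides the heavy chain medians moved the same way in the zonisamide and L-DOPA comparisons, though single probes such as RT1-T24-4 did not. On slide 1, which held replicate 1 of all 4 groups, the median log2 difference of the 26 heavy chain probes was -1.21 for zonisamide added to L-DOPA and 1.32 for L-DOPA minus lesioned saline. On that slide the choroid plexus sum was 20.4 with L-DOPA and zonisamide, 20.8 with L-DOPA and 1.19 in lesioned saline. The endothelium sum on that slide was 5.04 with L-DOPA and zonisamide, 7.59 with L-DOPA and 7.47 in lesioned saline, and the blood sum 45.9, 67.1 and 76.6 in the same order. On slide 4, with replicate 2 of the 3 lesioned groups, the medians were -2.23 and 1.63, and on slide 2, with replicate 3 of both drug groups, the zonisamide median was -1.55. For the lesion, a comparison that slide 1 alone holds, the heavy chain median was -0.30, against 0.29 over all arrays. These values have no replicates within a slide and no test.

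Among the classical heavy chains, RT1-A1 was read by 2 probes and RT1-A2 by 1. RT1-A1 probe 1 stood at 1.30, 0.99 and 1.15 with L-DOPA and zonisamide, 2.78, 3.44 and 3.05 with L-DOPA, 1.21, 1.36 and 2.03 in lesioned saline, and 1.81, 0.92 and 1.54 on the non-lesioned side. The 3 L-DOPA arrays were above the other 9. It fell by 1.94 ± 0.29 (SE) on the log2 scale with zonisamide, 3.85-fold (adjusted p = 0.0264, limma), and its L-DOPA change of 1.55 ± 0.29 missed the threshold (adjusted p = 0.0536). RT1-A1 probe 2 read -1.19, -1.68 and -1.17 with L-DOPA and zonisamide, 1.33, 1.94 and 2.08 with L-DOPA, -1.39, -1.14 and 0.70 in lesioned saline, and -0.71, -2.03 and -0.73 on the non-lesioned side. Again the L-DOPA arrays were above the rest, with replicate 3 of lesioned saline next. Probe 2 fell by 3.13 ± 0.54 with zonisamide, 8.74-fold (adjusted p = 0.0415), a larger change than probe 1 gave for the same symbol. Its L-DOPA change of 2.39 ± 0.54 had an adjusted p of 0.107. RT1-A2 was on the same side in both comparisons, 0.99 ± 0.24 for L-DOPA (adjusted p = 0.134) and -1.25 ± 0.24 for zonisamide (adjusted p = 0.0612), without passing.

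The RT1-CE genes encode heavy chains of the RT1-C/E region, and 12 of their probes were tested. RT1-CE2 gave the largest changes of all members. RT1-CE2 probe 2 stood at -4.34, -3.79 and -5.05 with L-DOPA and zonisamide, -0.78, -0.46 and -0.17 with L-DOPA, -3.87, -3.73 and -3.84 in lesioned saline, and -4.38, -5.43 and -2.97 on the non-lesioned side. The lowest L-DOPA array exceeded the highest of the other 9 arrays. It rose by 3.35 ± 0.53 with L-DOPA, 10.2-fold (adjusted p = 0.0337, limma), and fell by 3.93 ± 0.53 with zonisamide, 15.2-fold (adjusted p = 0.0208). Neither block named above kept the L-DOPA or the zonisamide call. By the moderated F test over the 4 groups RT1-CE2 probe 2 was the 1 member that passed (adjusted p = 0.0342), against 0.278% of all probes, and 0 members passed with either block. RT1-CE2 probe 1 stood at -1.03, -1.49 and -1.48 with L-DOPA and zonisamide, 0.96, 1.73 and 1.51 with L-DOPA, -1.11, -0.88 and 0.43 in lesioned saline, and -0.29, -1.36 and -1.03 on the non-lesioned side. It fell by 2.73 ± 0.42 with zonisamide (adjusted p = 0.0316) and changed by 1.92 ± 0.42 with L-DOPA (adjusted p = 0.0940). The probes of RT1-CE2 disagreed on replicate 3 of lesioned saline, which was the highest of its group by probe 1 (0.43) and between the others by probe 2 (-3.84).

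RT1-CE7 stood at -2.49, -2.95 and -2.37 with L-DOPA and zonisamide, -0.51, 0.00 and 0.07 with L-DOPA, -2.50, -2.36 and -1.17 in lesioned saline, and -1.74, -2.77 and -2.23 on the non-lesioned side. RT1-CE11 stood at -3.99, -4.58 and -4.43 with L-DOPA and zonisamide, -2.60, -2.29 and -1.96 with L-DOPA, -3.95, -4.0 and -2.93 in lesioned saline, and -3.40, -4.41 and -3.74 on the non-lesioned side. RT1-CE5 probe 1 stood at -1.34, -1.58 and -1.56 with L-DOPA and zonisamide, -0.34, 0.59 and 0.14 with L-DOPA, -1.37, -1.18 and -0.49 in lesioned saline, and -1.04, -1.46 and -1.54 on the non-lesioned side. In all 3 the L-DOPA arrays were above every other array. With zonisamide they fell by 2.46 ± 0.38, 2.05 ± 0.35 and 1.62 ± 0.28 in that order (adjusted p = 0.0329, 0.0415 and 0.0434, limma). Their L-DOPA changes of 1.87, 1.34 and 1.15 did not pass (adjusted p = 0.0796, 0.158 and 0.140).

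The remaining RT1-CE probes did not pass in any comparison. RT1-CE16 changed by 2.05 ± 0.60 with L-DOPA and by -3.08 ± 0.60 with zonisamide (adjusted p = 0.223 and 0.0616). RT1-CE15 was not well above background on any array of L-DOPA with zonisamide, against 3 of 3 with L-DOPA, which makes it at least 4.58-fold lower with zonisamide (adjusted p = 0.273). For such bounds each dim array takes the higher of the probe's own value and the dimmest signal scored well above background on that array. RT1-CE15 entered the test through the L-DOPA group alone, where it is high, so its bound is no independent support. RT1-CE13 behaved differently from most. It stood at -2.44, -3.02 and -3.30 with L-DOPA and zonisamide, -1.84, -2.10 and -2.43 with L-DOPA, -2.55, -2.30 and -1.51 in lesioned saline, and -3.28, -2.95 and -2.76 on the non-lesioned side. Its L-DOPA change was -0.01 ± 0.31 (adjusted p = 0.996, limma), with a 95% interval of -0.70 to 0.68. RT1-CE3 and RT1-CE4 changed by 1.42 ± 0.54 and 2.13 ± 0.70 with L-DOPA, and by -2.24 and -2.54 with zonisamide. RT1-CE12 and RT1-CE10 changed by 0.32 ± 0.35 and 0.60 ± 0.72 with L-DOPA, and by -0.14 and -0.64 with zonisamide.

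**Figure D2:**
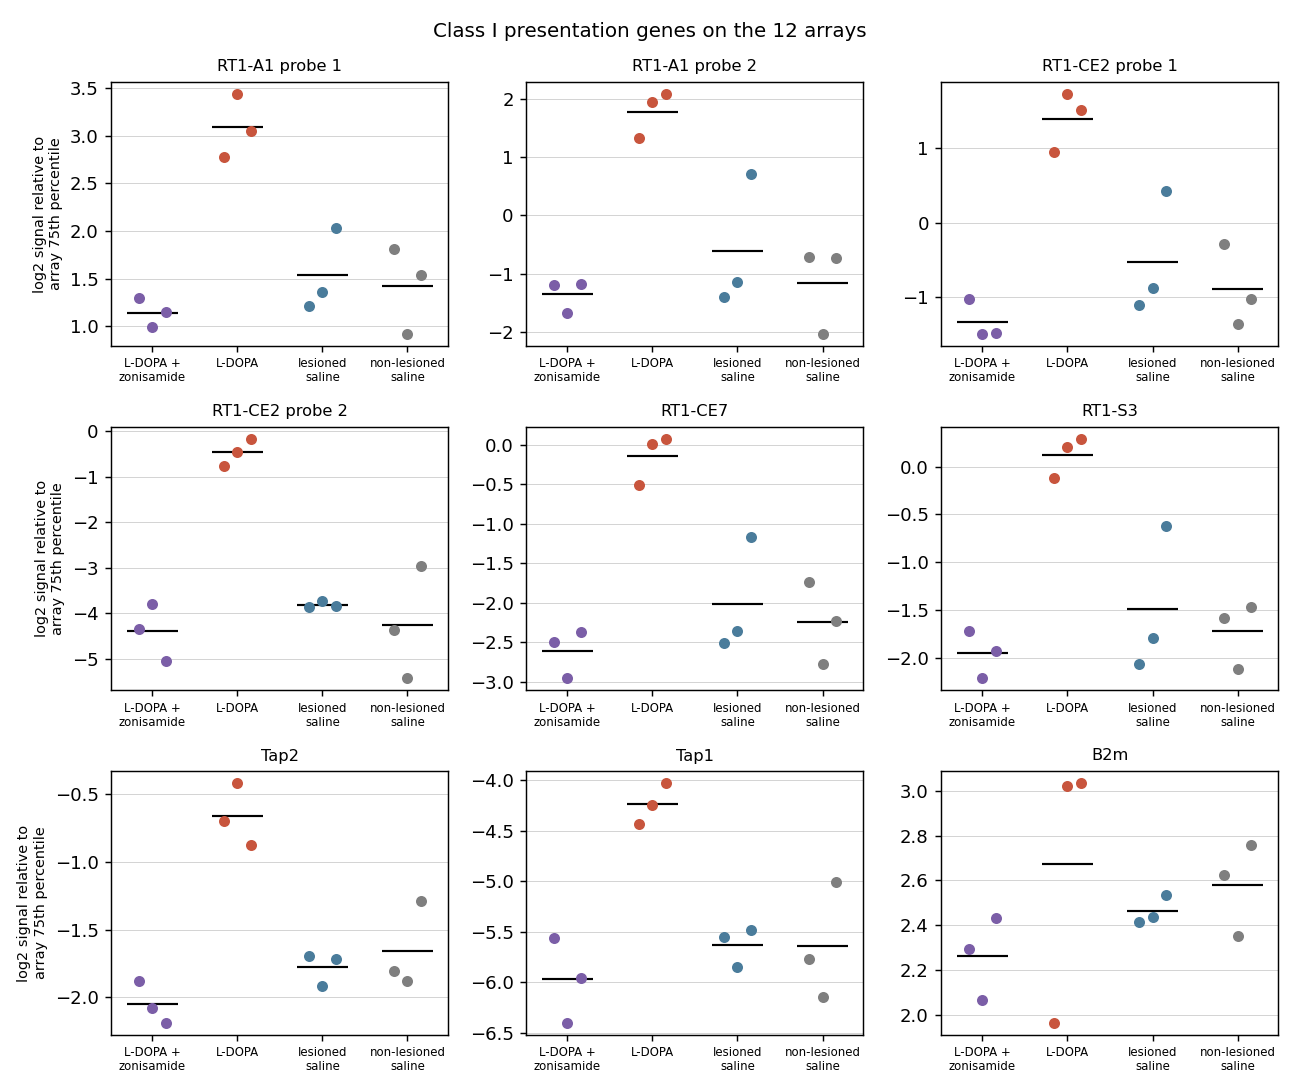
Relative log2 signal (y axis, log2 units, own scale in each panel) of 9 member probes, with 1 point per array and a bar at the mean of the 3 arrays of a group. The L-DOPA points lie above all others for the 8 probes of heavy chains, Tap2 and Tap1, and for B2m they span 1.97 to 3.03, across the other groups.

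Of the 11 other heavy chain probes tested (RT1-S, RT1-N, RT1-M and RT1-T), RT1-S3 alone passed. RT1-S3 stood at -1.72, -2.21 and -1.92 with L-DOPA and zonisamide, -0.12, 0.21 and 0.29 with L-DOPA, -2.06, -1.79 and -0.62 in lesioned saline, and -1.58, -2.12 and -1.46 on the non-lesioned side. It fell by 2.08 ± 0.34 with zonisamide, 4.22-fold (adjusted p = 0.0407, limma), and changed by 1.62 ± 0.34 with L-DOPA (adjusted p = 0.0923). RT1-T18 probe 1 stood at -1.72, -2.11 and -3.92 with L-DOPA and zonisamide, -0.59, 0.03 and 0.08 with L-DOPA, -1.94, -1.54 and -1.0 in lesioned saline, and -1.67, -1.94 and -1.48 on the non-lesioned side. Replicate 3 of L-DOPA with zonisamide was far below the rest for this probe, and its zonisamide change of -2.42 ± 0.50 did not pass (adjusted p = 0.0692). Both RT1-S2 probes were on the same side as RT1-S3, at 1.40 and 1.09 for L-DOPA and -2.02 and -1.53 for zonisamide, without passing. RT1-N3 changed by 0.88 and -0.69, and RT1-M6-1 probe 1 by 0.75 and -1.19, for L-DOPA and then zonisamide, also without passing.

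Some RT1-M and RT1-T probes went the other way with L-DOPA. RT1-M1-2 stood at -5.06, -5.48 and -5.01 with L-DOPA and zonisamide, -4.83, -5.82 and -5.44 with L-DOPA, -4.56, -4.30 and -3.29 in lesioned saline, and -6.40, -4.12 and -5.77 on the non-lesioned side. The L-DOPA arrays were below all lesioned saline arrays, by 1.31 ± 0.54 in the mean (adjusted p = 0.412, limma), and the non-lesioned arrays spanned both. RT1-M1-5 probe 1 changed by -1.61 ± 0.65 with L-DOPA (adjusted p = 0.394). RT1-T24-4 changed by -0.65 with L-DOPA and 0.71 with zonisamide, RT1-N2 by -0.13 and 0.32, and RT1-M3-1 by 0.049 and -0.16, none of which passed. The 10 member probes that were not tested are also heavy chains: RT1-CE5 probe 2, RT1-CE6, RT1-M1-4, RT1-M1-5 probe 2, RT1-M2, RT1-M4, RT1-M5, RT1-M6-1 probe 2, RT1-T18 probe 2 and RT1-T24-2. Of these, 5 were well above background on 0 of 12 arrays, and the other 5 on 1 to 7.

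The light chain gene B2m changed little. It stood at 2.29, 2.07 and 2.43 with L-DOPA and zonisamide, 1.97, 3.02 and 3.03 with L-DOPA, 2.41, 2.44 and 2.54 in lesioned saline, and 2.62, 2.35 and 2.76 on the non-lesioned side. On the L-DOPA arrays replicate 1 was the lowest of all 12 and replicates 2 and 3 the highest, while the RT1-A and RT1-CE2 probes above were high on all 3. Its changes were 0.21 ± 0.27 with L-DOPA (95% interval -0.38 to 0.81, adjusted p = 0.837, limma) and -0.41 ± 0.27 with zonisamide (95% interval -1.0 to 0.19, adjusted p = 0.603). The choroid plexus sum was also lower on replicate 1 of L-DOPA (20.8) than on replicates 2 and 3 (172 and 124). Unlike B2m, it was not low there against other groups, with 1.19 to 21.4 in lesioned saline. Without the 4 arrays high in those markers, replicate 1 is the only L-DOPA array left, the lowest of all 12 for B2m. B2m then changed by -0.50 with L-DOPA and 0.21 with zonisamide. The part of these markers in the B2m values was not tested.

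In peptide loading, both subunits of the TAP transporter were high with L-DOPA. Tap2 stood at -1.88, -2.08 and -2.19 with L-DOPA and zonisamide, -0.70, -0.42 and -0.87 with L-DOPA, -1.70, -1.92 and -1.72 in lesioned saline, and -1.80, -1.88 and -1.29 on the non-lesioned side. It rose by 1.11 ± 0.19 with L-DOPA, 2.17-fold (adjusted p = 0.0470, limma), and fell by 1.39 ± 0.19 with zonisamide, 2.62-fold (adjusted p = 0.0249). Both calls were lost with the replicate or the slide as a block. Tap1 stood at -5.56, -6.40 and -5.95 with L-DOPA and zonisamide, -4.44, -4.25 and -4.03 with L-DOPA, -5.55, -5.85 and -5.48 in lesioned saline, and -5.77, -6.14 and -5.01 on the non-lesioned side. It fell by 1.73 ± 0.30 with zonisamide, 3.31-fold (adjusted p = 0.0415), and changed by 1.39 ± 0.30 with L-DOPA (adjusted p = 0.0927). For both genes the 3 L-DOPA arrays were above all others, replicate 3 of lesioned saline included. Tapbp, which encodes tapasin, the bridge between TAP and the heavy chain, showed smaller differences. It stood at -3.42, -3.67 and -3.17 with L-DOPA and zonisamide, -2.74, -2.70 and -2.93 with L-DOPA, -3.26, -3.25 and -2.86 in lesioned saline, and -3.22, -3.39 and -3.41 on the non-lesioned side. It changed by 0.33 ± 0.17 with L-DOPA and -0.63 ± 0.17 with zonisamide (adjusted p = 0.531 and 0.161). The general chaperones did not pass. Calr (calreticulin) changed by 0.54 and -0.51, Canx (calnexin) by 0.23 and -0.23, and the disulfide isomerase gene Pdia3 by 0.12 and -0.02, each for L-DOPA and then zonisamide. The tapasin relative Tapbpl varied most within groups, with an SE of 0.78.

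None of the 5 probes of peptide making passed. Psmb9, an immunoproteasome subunit, stood at -1.70, -2.26 and -1.31 with L-DOPA and zonisamide, -1.73, -0.47 and -0.35 with L-DOPA, -1.61, -1.30 and -1.29 in lesioned saline, and -1.72, -1.51 and -0.79 on the non-lesioned side. Replicate 1 of L-DOPA was low and the other two high, the same order as for B2m. Its changes were 0.55 ± 0.39 with L-DOPA and -0.90 ± 0.39 with zonisamide (adjusted p = 0.654 and 0.387, limma). Psmb8, its partner subunit, stood at -2.32, -2.81 and -1.98 with L-DOPA and zonisamide, -2.52, -1.83 and -1.84 with L-DOPA, -2.30, -2.11 and -2.74 in lesioned saline, and -2.31, -2.52 and -2.15 on the non-lesioned side. The groups overlapped, and its changes were 0.32 ± 0.27 and -0.31 ± 0.27. Psmb10 stood at 2.09, 2.34 and 2.13 with L-DOPA and zonisamide, 2.32, 2.52 and 2.74 with L-DOPA, 2.37, 2.32 and 2.64 in lesioned saline, and 2.28, 2.15 and 1.81 on the non-lesioned side. It changed by 0.09 with L-DOPA and -0.34 with zonisamide. Psme1 and Psme2, the subunits of the proteasome activator that interferon induces, changed by 0.22 and 0.16 with L-DOPA and by -0.30 and -0.27 with zonisamide.

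**Figure D3:**
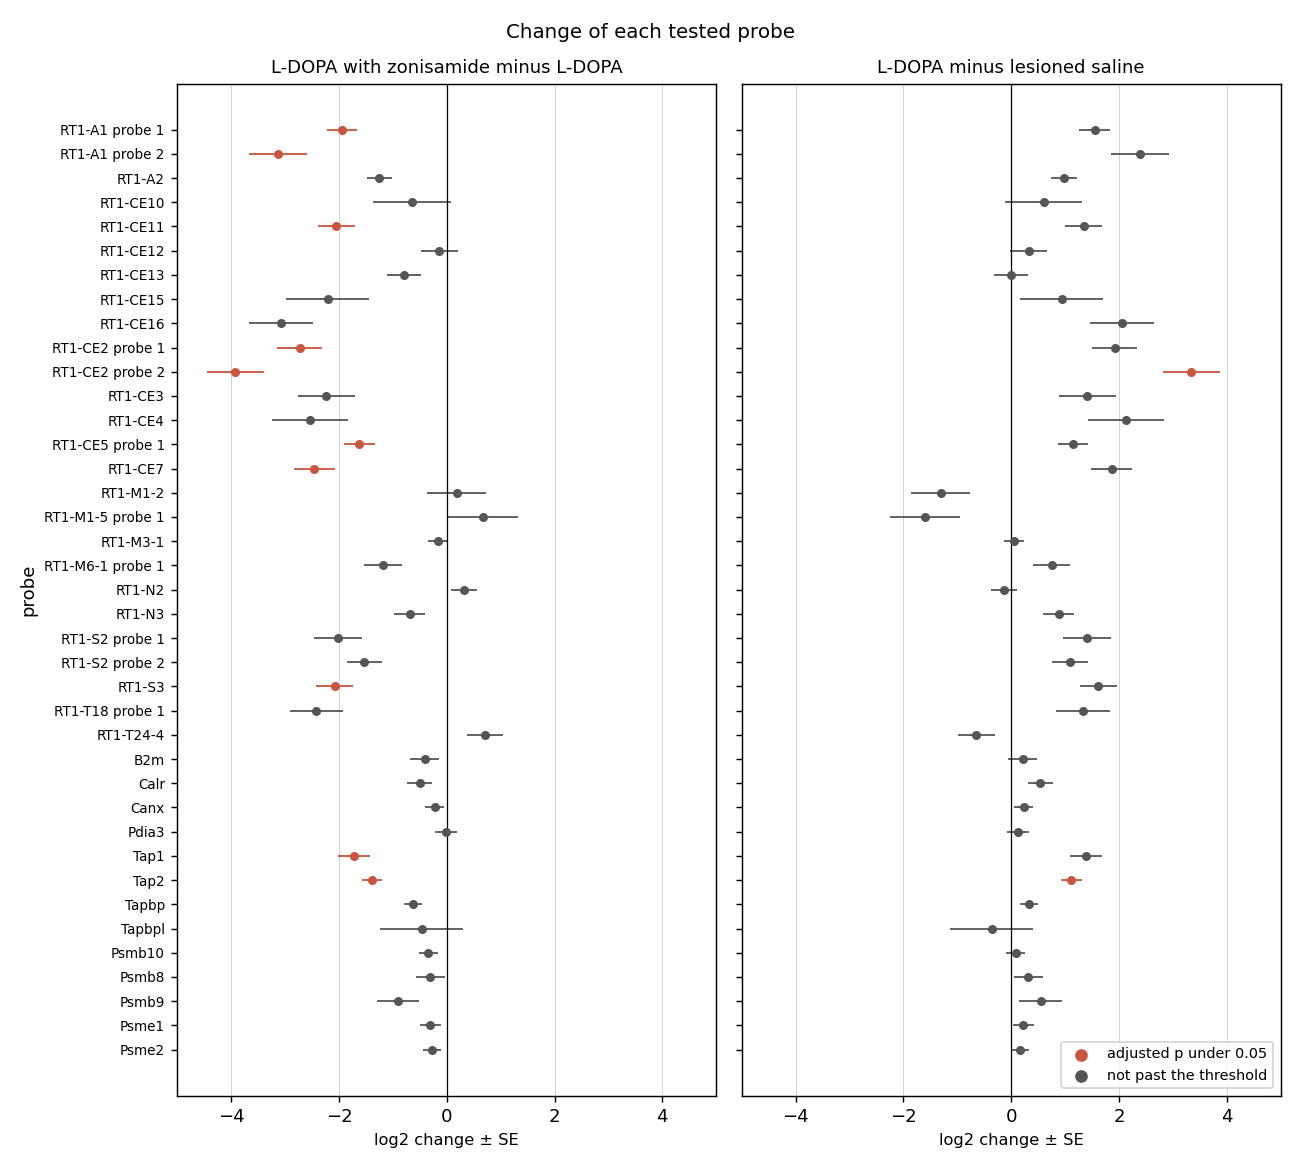
Log2 change (x axis) with its SE for each of the 39 tested probes (rows, by role), for zonisamide added to L-DOPA on the left and for L-DOPA minus lesioned saline on the right. Red points passed an adjusted p of 0.05, 10 on the left, all lower, and 2 on the right, both higher.

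The lesion alone moved no member past the threshold, nor any of the 21600 probes tested (0% in either direction). At an unadjusted p under 0.05 there were 3 members, against 8.24% of all probes. Lesioned saline lay wholly above the non-lesioned side on 3 members and wholly below on 2, against 8.45% and 8.24% of all probes. The member median was 0.20, beside 0.04 over all probes, and without replicate 3 of lesioned saline it was -0.035. Calr, the member with the smallest p, stood at 1.39, 1.77 and 1.97 with L-DOPA and zonisamide, 1.79, 2.37 and 2.49 with L-DOPA, 1.82, 1.75 and 1.46 in lesioned saline, and 2.23, 2.57 and 2.52 on the non-lesioned side. All lesioned saline arrays were below all non-lesioned ones, by 0.77 ± 0.23 in the mean (adjusted p = 0.506, limma).

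Replicate 3 of lesioned saline was above both other arrays of its group on 19 of 26 heavy chain probes, on 10 of them by more than 1 log2 unit. On the 13 other members it was above both on 6, on 0 of them by more than 1. The 3 L-DOPA arrays were above replicate 3 of lesioned saline on 16 of 26 heavy chains and 6 of 13 other members. It lay alone on its slide, so slide and array cannot be told apart there. The same counts over all tested probes are not given here. A trait of these genes therefore cannot be told apart from a trait of the whole array.

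L-DOPA with zonisamide against lesioned saline gave 0 calls among members and 0 over all probes (0%). Just 1 member had an unadjusted p under 0.05, against 7.18% of all probes. No member was wholly above lesioned saline, against 6.54% of all probes, and 4 were wholly below, against 11.4%. The member median was -0.39, beside -0.05 over all probes. The smallest p was that of RT1-CE13, at -0.80 ± 0.31 (95% interval -1.49 to -0.11, adjusted p = 0.668, limma). For Tap2 the change was -0.27 (95% interval -0.70 to 0.16) and for RT1-A1 probe 1 -0.39 (95% interval -1.03 to 0.24), so differences of up to 0.70 and 1.03 lower lie within the intervals.

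Most members lie in the MHC on chromosome 20. Of the 31 tested probes there, 2 rose with L-DOPA and 10 fell with zonisamide, with medians of 1.09 and -1.53. For the 8 members elsewhere (among them B2m, Calr and Canx) there were 0 calls and the medians were 0.18 and -0.32. Over all probes 0.394% were called for L-DOPA and 0.486% for zonisamide. The 8 members were not compared with the 31 by a test. For genes between and beside the class I genes that are not members, 110 probes for 99 genes were tested. With L-DOPA 0 passed, 15 had an unadjusted p under 0.05 (11% over all probes) and the median was -0.014. With zonisamide 1 passed, 16 had an unadjusted p under 0.05 (12.2% over all probes), 13 of them lower, and the median was -0.041. Both counts are near the shares over all probes.

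That 1 gene was RT1-Bb, the beta chain of a class II molecule. It stood at -7.96, -9.22 and -7.53 with L-DOPA and zonisamide, -2.86, -1.31 and -3.41 with L-DOPA, -8.57, -8.70 and -5.06 in lesioned saline, and -8.77, -8.42 and -8.43 on the non-lesioned side. It was well above background on 0, 3, 1 and 0 arrays of these groups, the 1 being replicate 3 of lesioned saline. RT1-Bb entered the test through the L-DOPA group alone, where it is high, so its call and bound are no independent support. In the main processing it was at least 40.4-fold lower with zonisamide than with L-DOPA (adjusted p = 0.0363, limma). The bound holds for that processing only: the log2 change was -5.71 there and -1.97 with normexp. With the replicate block the adjusted p was 0.0699, and without either replicate 2 or 3 of L-DOPA it was 0.150 and 0.0944. Leaving out the other arrays in turn moved it between 0.0133 and 0.149. Its L-DOPA change had an adjusted p of 0.0566. The other 9 tested probes of class II presentation, the pathway that shows peptides from outside the cell, did not pass in either comparison.

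Of 21 tested probes of interferon targets, 1 rose with L-DOPA and 2 fell with zonisamide, and their medians were 1.02 and -1.05. Ifitm3, an antiviral membrane protein, stood at -2.62, -2.95 and -2.72 with L-DOPA and zonisamide, -1.73, -1.15 and -1.47 with L-DOPA, -2.57, -2.54 and -2.70 in lesioned saline, and -2.59, -2.66 and -2.26 on the non-lesioned side. It rose by 1.15 ± 0.18 with L-DOPA (adjusted p = 0.0337, limma, 0.0228 to 0.145 when each array was left out, the highest without replicate 2 of lesioned saline) and fell by 1.31 ± 0.18 with zonisamide (adjusted p = 0.0249, and 0.0663 with the replicate block). Gbp2, an interferon-induced GTPase, stood at -1.67, -1.95 and -1.75 with L-DOPA and zonisamide, -0.66, -0.19 and 0.05 with L-DOPA, -1.45, -1.21 and -1.32 in lesioned saline, and -1.68, -1.15 and -1.07 on the non-lesioned side. It fell by 1.53 ± 0.22 with zonisamide (adjusted p = 0.0264, and 0.0538 with the replicate block) and changed by 1.07 ± 0.22 with L-DOPA (adjusted p = 0.0836). Both zonisamide calls were lost without replicate 2 or 3 of L-DOPA or of L-DOPA with zonisamide (adjusted p 0.0718 to 0.127), and that of Gbp2 also without replicate 1 of L-DOPA with zonisamide (0.0504). Leaving out the 4 arrays high in choroid plexus markers left 1 L-DOPA array. The zonisamide changes of RT1-Bb, Gbp2 and Ifitm3 were then -5.73, -1.16 and -1.06, and the L-DOPA change of Ifitm3 was 0.87. With normexp the zonisamide calls of these 3 genes were lost (adjusted p = 0.0713, 0.0527 and 0.203 in the same order, limma). With slide as a fixed block they were lost as well (0.102, 0.102 and 0.111). The L-DOPA call of Ifitm3 had an adjusted p of 0.133 with normexp, 0.336 with slide as a fixed block and 0.0940 with the replicate block. Unlike many heavy chains, neither Ifitm3 nor Gbp2 was high on replicate 3 of lesioned saline. Other interferon targets differed, and that replicate was the highest of its group for Cxcl10, Mx1 and Dhx58. In lesioned saline Cxcl10 stood at -5.99, -5.15 and -4.47, Mx1 at -0.47, -0.65 and -0.07, and Dhx58 at -4.38, -4.32 and -4.18.

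Among 22 tested probes of class I regulators none passed. Irf1, a transcription factor of the interferon response that acts on class I promoters, had the smallest p, at 0.57 ± 0.14 with L-DOPA and -0.56 ± 0.14 with zonisamide (adjusted p = 0.142 and 0.127, limma). The 3 L-DOPA arrays were above the other 9. Of the 20 probes of the constitutive proteasome, the 10 of ER folding and the 4 of class I-like molecules, none passed in either comparison, with L-DOPA medians of 0.11, 0.17 and 0.27.

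**Figure D4:**
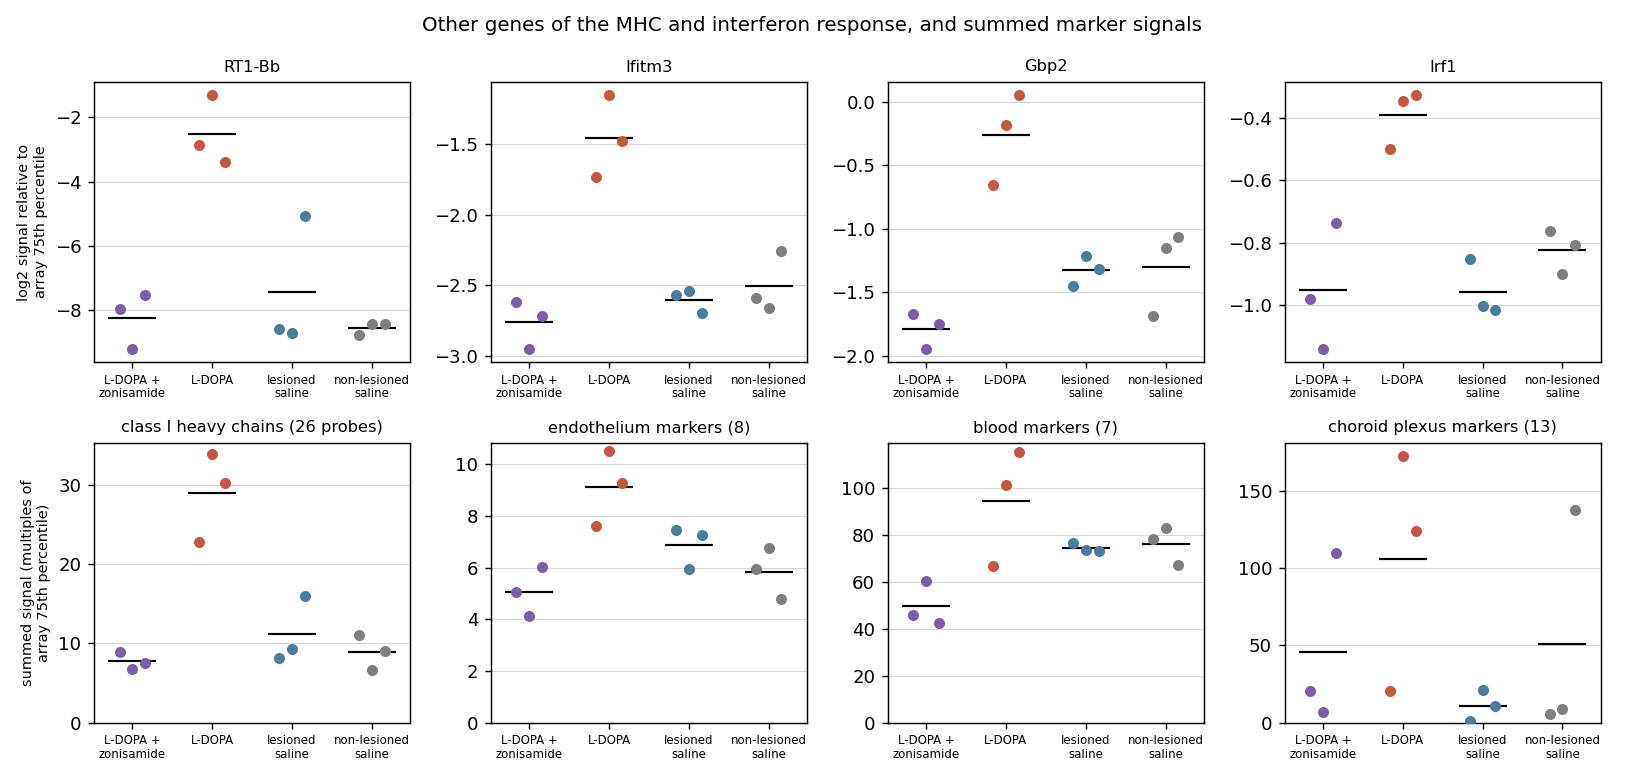
Top, relative log2 signal (y axis, own scale in each panel) of RT1-Bb, Ifitm3, Gbp2 and Irf1. Bottom, summed signal (multiples of the array's 75th percentile) of the 26 heavy chain probes and of marker probes of endothelium, blood and choroid plexus. Points are arrays and bars group means. The L-DOPA points are above all others for heavy chains and endothelium, while replicate 1 of L-DOPA is not high for blood or choroid plexus.

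Among the markers of other cell types, 1 of 7 tested meninges probes passed. It reads Col1a1, a collagen chain of fibroblasts, and stood at -1.99, -2.41 and -2.12 with L-DOPA and zonisamide, -1.17, -0.70 and -0.10 with L-DOPA, -1.57, -2.10 and -1.94 in lesioned saline, and -2.22, -2.12 and -1.92 on the non-lesioned side. The L-DOPA arrays were above all others, as for the heavy chain probes that passed. It fell by 1.51 ± 0.26 with zonisamide (adjusted p = 0.0415, limma) and changed by 1.21 ± 0.26 with L-DOPA (adjusted p = 0.0926). The zonisamide call was lost with the replicate block (0.0788), with slide as a fixed block (0.139) and without any 1 array other than replicate 1 of L-DOPA (0.0521 to 0.153). A further tested Col1a1 probe gave a smaller L-DOPA change, 0.45 ± 0.26 (adjusted p = 0.569, limma), and did not pass with zonisamide. The 7 meninges probes summed to 2.51 to 6.22 with L-DOPA and zonisamide, 3.77 to 12.6 with L-DOPA, 3.32 to 4.40 in lesioned saline and 2.94 to 16.8 on the non-lesioned side. The 8 endothelium probes summed to 4.13 to 6.01 with L-DOPA and zonisamide, 7.59 to 10.5 with L-DOPA, 5.93 to 7.47 in lesioned saline and 4.78 to 6.76 on the non-lesioned side, with the L-DOPA arrays above all others. None of the 8 passed with L-DOPA or with zonisamide, and their median changes were 0.35 and -0.84. At an unadjusted p under 0.05 there were 3 with L-DOPA and 4 with zonisamide, against 11% and 12.2% of all probes. The 7 blood probes summed to 42.6 to 60.4 with L-DOPA and zonisamide, 67.1 to 116 with L-DOPA, 73.3 to 76.6 in lesioned saline and 67.5 to 83.0 on the non-lesioned side. The part of meninges, endothelium and blood in the class I differences was not tested. The 16 probes of microglia and macrophage markers summed to 31.3 to 35.5 with L-DOPA and zonisamide, 38.2 to 44.6 with L-DOPA, 38.9 to 50.6 in lesioned saline and 29.7 to 38.4 on the non-lesioned side. Their median change was -0.17 with L-DOPA and -0.31 with zonisamide, and none passed. At an unadjusted p under 0.05 there were 2 with L-DOPA and 5 with zonisamide, against 11% and 12.2% of all probes. The 11 probes of T and NK cell markers summed to 0.191 to 0.207, 0.225 to 0.263, 0.218 to 0.342 and 0.192 to 0.245 in the same order of groups, and Cd8a and Gzmb were well above background on 0 of 12 arrays. Of the 14 spiny neuron probes, 1 rose with L-DOPA, that of the opioid precursor gene Pdyn, by 1.75 ± 0.22 (adjusted p = 0.0156, limma). That call was lost with slide as a fixed block (adjusted p = 0.152, limma). It was also lost without replicate 1 of lesioned saline or replicate 2 or 3 of L-DOPA (0.0664 to 0.0852). Without the 4 arrays high in choroid plexus markers, which leaves 1 L-DOPA array, the Pdyn change was 1.46. No tested probe of the choroid plexus, astrocyte, oligodendrocyte, T and NK cell or B cell lists passed in either comparison.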

How the data were processed

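RNA of rat striatum was hybridised to 12 single-colour (Cy3) Agilent arrays, 3 in each of 4 groups, grouped by the labels. Per the file headers, the authors' scanner files hold a processed intensity with background subtracted and no scaling between arrays, made with Agilent Feature Extraction (10.7 per the submitters' processing notes). The authors' combined table held the same deposited intensity values on all 62976 spots within a relative tolerance of 1e-06.

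Control spots and outlier-flagged spots were left out, spots of a probe were averaged in log2, and each array's 75th percentile was subtracted. Testing required a signal well above background, on 0.5 or more of the spots, in each of the 3 arrays of some group. This left 21600 of 30367 probes, and 131 of them lacked a usable spot on at least 1 array. No member value was missing. Symbols came from RefSeq accessions (17328 probes with 1 symbol, 13039 with none). Probes of a symbol were kept apart, since paralogs and alleles may differ between them. The array was designed on an older assembly than the one the symbols come from, so gene coordinates are not given.

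One limma fit (3.58.1, R 4.3.3) to all 12 arrays, with 8 residual degrees of freedom, gave 4 contrasts and a moderated F test. The tests were two-sided, the Benjamini-Hochberg adjustment covered all 21600 probes, and the threshold was 0.05. SEs are moderated. The script was tested on simulated data first. With 3 arrays a group, p-values set a difference against a spread estimated from all 4 groups together. That spread mixes differences between animals, tissue pieces, arrays and slides. Members and lists were chosen with earlier results of these data known. The rule for naming members took those past the threshold, the smallest p of each role in each contrast, and B2m, Tap1, Tap2, Tapbp, Psmb8 and Psmb9; further members are named with changes only, after their values were seen. Of each other list the 2 smallest p were eligible, and all calls were counted.

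The arrays came from 5 slides. Deviations of same-numbered arrays correlated at 0.37, 0.19 and 0.24 in the zonisamide comparison, where every equal number shares a slide. The main fit has no block for these pairs, so its calls ignore them. Fits with the replicate number or the slide as a block are given beside it. For L-DOPA and for both drugs against lesioned saline, numbers 1 and 2 share a slide and 3 does not, and for the lesion number 1 alone does, so those numbers pair the arrays in part. With slide as a fixed block, arrays alone on their slide carry no weight.

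Alternatives were quantile normalization, normexp (offset 50) on median spot brightness with quantile normalization (called normexp; the mean brightness is not used here), array weights, dim probes kept in (no filter), detection required on all 12 arrays, 1 probe per symbol, a robust prior with intensity trend, a fit of only the groups compared, the replicate number or slide as a fixed block, slide as a random block, and leaving out each array. Leaving out the 4 arrays high in choroid plexus markers or the 5 with a replicate-spot spread over 20% was chosen after seeing the data.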

Additional observations from a re-analysis of the deposited data

How the results depend on the processing

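The zonisamide and L-DOPA directions of the member medians held under all alternatives, but the counts of calls did not. For L-DOPA 2 members passed, against 1 with normexp, with no filter on dim probes, with 1 probe per symbol, with only the groups compared and without the 5 arrays of wide spot spread. The count was 10 with array weights and 0 with the replicate block and with slide as a fixed block. Leaving out 1 array gave 0 to 5. The median of 0.75 was 0.99 with the filter on all 12 arrays, and 0.46 to 0.98 when 1 array was left out. It was 0.49 without the 4 arrays high in choroid plexus markers, which leaves 1 L-DOPA array. For zonisamide 10 passed, against 1 with normexp, 5 with no filter and 6 with array weights. The count was 0 with only the groups compared, with the replicate block, with slide as a fixed block and without the 5 arrays. Leaving out 1 array gave 0 to 10. The median of -0.90 was -0.51 with normexp, -0.64 with no filter, -1.25 with the filter on all 12 arrays, and -1.28 to -0.79 when 1 array was left out. For both drugs against lesioned saline the median of -0.39 was -0.17 with slide as a fixed block. For the lesion the median of 0.20 was -0.035 to 0.35 when 1 array was left out. The F test called 1 member, 2 with quantile normalization, and 3 with the filter on all 12 arrays or the intensity trend. It called 11 with array weights and 5 with slide as a random block. It called 0 with no filter, 1 probe per symbol, the replicate block or slide as a fixed block. Leaving out 1 array gave 0 to 4. Settings that leave out arrays or other groups fit fewer arrays; other causes were not tested. In the L-DOPA and both-drug comparisons numbers 1 and 2 share slides, in the lesion comparison number 1 does, and not every pair of deviations correlated positively. The replicate block there changed the L-DOPA and F counts as given above and no other count.

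Changes that took the other sign, none of them called, were the following. Leaving out the 4 arrays high in choroid plexus markers keeps 1 L-DOPA array. The L-DOPA changes were then -0.50 for B2m, -0.14 for Psmb8, -0.33 for Psmb9, -0.12 for Psmb10 and 0.28 for RT1-CE13. Those with zonisamide were 0.21 for B2m and -0.44 for RT1-M1-2. Without the 5 arrays of wide spot spread they were Psmb10 -0.022 and RT1-CE13 0.15 with L-DOPA. These equal the values without replicate 3 of L-DOPA, the array that this setting takes from the comparison. With normexp they were Calr -0.27 and Psmb10 -0.11 with L-DOPA and Calr 0.26 with the lesion. The L-DOPA change of RT1-CE13 was also 0.037 with quantile normalization, 0.11 with array weights, 0.39 with slide as a fixed block and 0.037 with it as a random block. When 1 array was left out, Psmb10 ranged from -0.022 to 0.19 and RT1-CE13 from -0.22 to 0.30 with L-DOPA, RT1-M1-2 from -0.048 to 0.45 with zonisamide, and RT1-A1 probe 2 from -0.11 to 0.93 with the lesion. Scaling moved the median of all probes in the lesion comparison to -0.10 with quantile normalization, from 0.04. Dim probes, RT1-CE15 and RT1-Bb among them, give bounds only where a group lay at background.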
